A study of Capra hircus with 9 samples.

Results

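The 9 genes described here encode proteins of the tight junction, measured in the goat mammary gland: 6 claudins (CLDN1, CLDN3, CLDN4, CLDN5, CLDN7 and CLDN8), occludin (OCLN), junctional adhesion molecule A (F11R) and zonula occludens 1 (TJP1). They were found by symbol in the deposited gene table, where 9 of 9 had a row among 23499 genes, and they were compared between stages of the lactation cycle. Mammary tissue came from 9 healthy goats of the Laoshan dairy breed, with 1 RNA-seq library per goat. The late lactation group (LL) held 3 goats at 240 days postpartum, the dry period group (DP) 3 goats at 300 days postpartum, and the late gestation group (LG) 3 goats at 140 days after mating. What the groups shared was the farm, the third parity and a mean age of 4 years. Each library was made from a whole piece of gland, so the cells it represents are a mixture, and different stages are different goats.

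Tight junctions seal the space between neighbouring cells near their apical side, and claudins form the strands that set how tight the seal is and which ions pass. Occludin and the junctional adhesion molecules are further membrane proteins of the junction, and the zonula occludens proteins are scaffolds that tie them to actin. In the mammary gland these junctions are known to be leaky in pregnancy and closed in lactation, when they keep milk components and blood components apart, and to open again after milking stops.

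The table places CLDN3 and CLDN4 close together on chromosome 25, CLDN3 at 33311507 to 33312973 on the plus strand and CLDN4 at 33280867 to 33282595 on the minus strand. CLDN1 lies on chromosome 1 at 76761492 to 76779219 and CLDN8 on the same chromosome at 4114962 to 4117074, both on the plus strand. CLDN7 is on chromosome 19 at 26781129 to 26784009 on the minus strand, and CLDN5 is on a scaffold with no chromosome, at 375574 to 376856 on the minus strand. OCLN is on chromosome 20 at 10235093 to 10282831, TJP1 on chromosome 21 at 28023756 to 28136536 and F11R on chromosome 3 at 111639293 to 111663064, all on the minus strand. The table names no genome build. The start of each of the 9 genes equals its start in the RefSeq annotation of ARS1.2.

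Levels are given as FPKM, sequenced fragments relative to transcript length and to all mapped fragments, so that levels of different genes can be compared within a library. Summed FPKM were 940676 to 1157015 for the LL libraries, 601250 to 616268 for DP and 733277 to 768157 for LG. The 10 highest genes took 80.6% to 86.0% of the sum in LL and 53.6% to 58.5% in the other stages. Values were divided by a median-ratio factor, 0.498 to 0.606 for LL, 1.44 to 1.53 for DP and 1.20 to 1.31 for LG, and the results are called scaled FPKM. A gene was called higher or lower when the adjusted p-value of limma was under 0.05 and the log2 fold change on the log2(scaled FPKM + 1) scale was at least 1 in size. FPKM hold no read counts, so counting error could not be computed. Where the libraries of 2 stages did not overlap, this is given as description. The share of all genes so separated was not computed.

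The mixture of cells was read from marker genes. The 12 luminal epithelial markers, which include EPCAM and the luminal keratins, were above 0 in every stage and summed to 628 to 688 scaled FPKM in LL libraries, 436 to 697 in DP libraries and 551 to 663 in LG libraries. The 7 fibroblast markers summed to 217 to 333 for LL, 522 to 2413 for DP and 525 to 957 for LG, with the highest sum in DP replicate 3. The 8 leukocyte markers summed to 31.7 to 39.4 for LL, 81.5 to 133 for DP and 31.2 to 44.3 for LG. The 7 basal and myoepithelial markers summed to 200 to 270 for LL, 152 to 469 for DP and 233 to 317 for LG. Of these, KRT5 and KRT14 were listed at values tied to those of a neighbouring gene. The 4 adipocyte markers summed to 2.71 to 3.72 scaled FPKM for LL and 1.14 to 1.69 for LG. In DP they summed to 20.4 in replicate 1, 2.57 in replicate 2 and 3.00 in replicate 3. In a piece of tissue, fewer cells of a type and less RNA per cell cannot be told apart.

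Among the 9 genes, CLDN4 had the highest mean FPKM in every stage, and the order below it differed between stages. In LL, CLDN4 stood at 21.1 ± 5.90 FPKM (SD, n = 3), above OCLN at 13.4 ± 1.97, F11R at 11.04 ± 2.12 and CLDN3 at 10.2 ± 1.65, and CLDN8 was last at 1.63 ± 0.165. The ranges of CLDN4 and OCLN did not overlap in LL, nor did those of CLDN1 and CLDN8 at the lower end, while each neighbouring pair between them overlapped. In DP, CLDN5 was second at 41.1 ± 15.5 FPKM, close under CLDN4 at 48.8 ± 8.71, and CLDN8 was again last at 8.60 ± 3.79. Every neighbouring pair overlapped in DP. In LG, CLDN4 at 52.0 ± 8.28 FPKM, CLDN8 at 48.6 ± 18.1 and CLDN3 at 47.3 ± 9.77 had the highest means and overlapping ranges. CLDN7 followed at 33.3 ± 4.24, below every library of CLDN4 and CLDN3 but within the range of CLDN8. CLDN5 at 7.76 ± 2.05 FPKM and CLDN1 at 5.39 ± 3.19 were the lowest in LG.

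**Figure D1:**
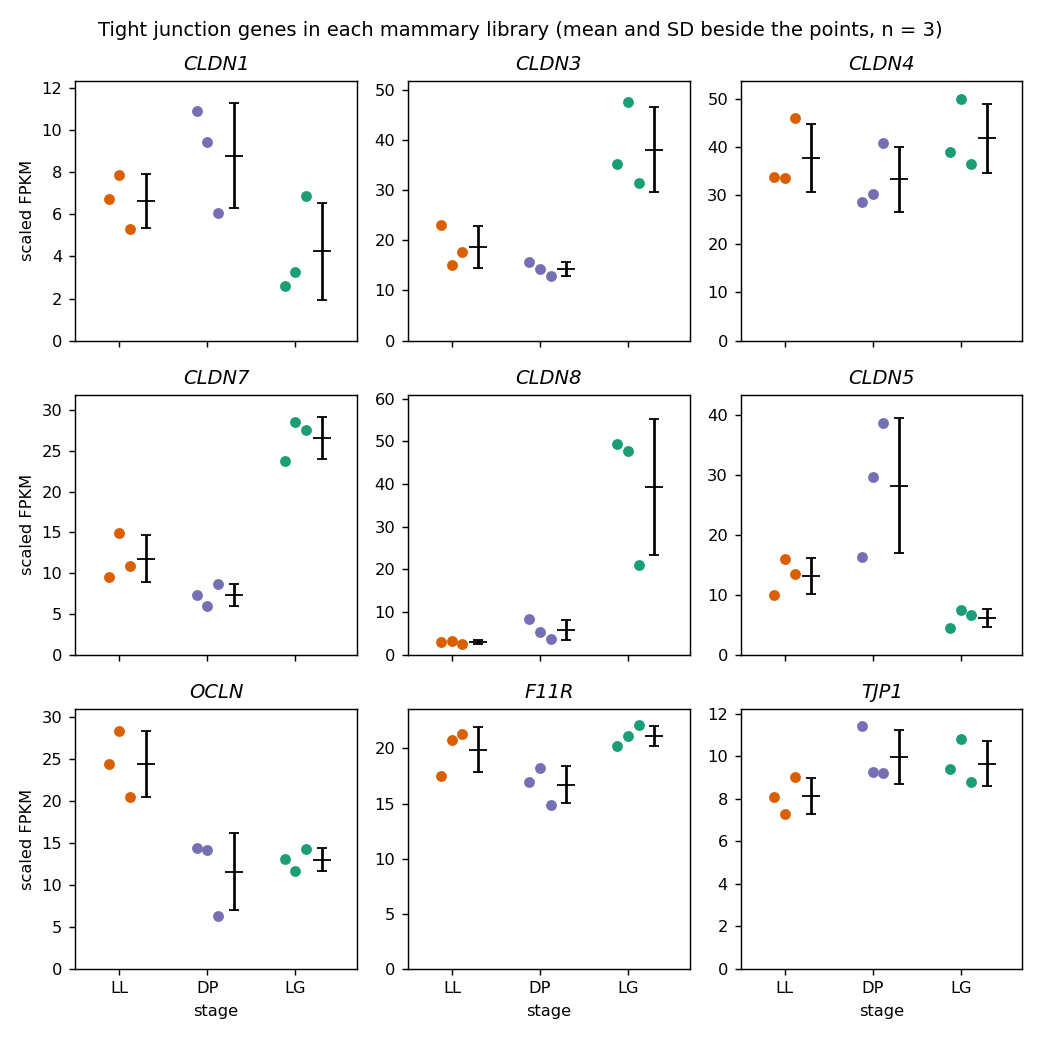
Level of each of the 9 tight junction genes in every library, in scaled FPKM (vertical axes, linear, starting at 0), by stage (horizontal axis); points are libraries in the order of their replicate number, and the bars beside them are mean and SD (n = 3). CLDN8 lay between 21.0 and 49.4 in LG and at or under 8.36 in the other stages, CLDN5 was lowest in the 3 LG libraries, and OCLN was highest in the 3 LL libraries.

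CLDN8, a claudin best known from the distal nephron, where it limits the passage of cations, had the widest range of the 9 genes. It was listed at 1.53, 1.82 and 1.54 FPKM in the LL libraries, at 12.8, 7.65 and 5.38 in the DP libraries and at 59.1, 59.0 and 27.6 in the LG libraries. After scaling, the LL mean was 2.97 ± 0.384, the DP mean 5.80 ± 2.35 and the LG mean 39.4 ± 15.9 (SD, n = 3). No LG library overlapped the other stages on either scale, and LG replicate 3 was the lowest of its stage at 21.0 scaled FPKM.

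CLDN3 and CLDN4 are barrier claudins of many glandular epithelia and are encoded close together. CLDN3 was at 11.5, 8.33 and 10.7 FPKM in the LL libraries, at 24, 20.5 and 18.4 in the DP libraries and at 42.2, 58.6 and 41.2 in the LG libraries. Scaled, the LL libraries averaged 18.6 ± 4.12, the DP libraries 14.2 ± 1.46 and the LG libraries 38.0 ± 8.43, so that LG lay apart from both other stages, which overlapped. CLDN4 was at 16.8, 18.6 and 27.8 FPKM in the LL libraries, at 43.7, 43.8 and 58.8 in the DP libraries and at 46.7, 61.6 and 47.8 in the LG libraries. Its scaled means of 37.7 ± 7.06, 33.3 ± 6.63 and 41.8 ± 7.17 had overlapping ranges in all 3 stages. The pattern of these genes differed, since the ratio of CLDN3 to CLDN4 FPKM was 0.385 to 0.686 for LL, 0.313 to 0.549 for DP and 0.862 to 0.952 for LG.

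CLDN7, a claudin of the basolateral membrane as well as of the junction, was listed at 4.72, 8.27 and 6.61 FPKM in the LL libraries, at 11.3, 8.67 and 12.4 in the DP libraries and at 28.4, 35.2 and 36.1 in the LG libraries. Scaled, the 3 stages did not overlap, with means of 11.8 ± 2.83 for LL, 7.33 ± 1.30 for DP and 26.6 ± 2.56 for LG. Whether these numbers measure CLDN7 alone cannot be told from the values. A neighbouring gene on the same strand, CTDNEP1, a nuclear envelope phosphatase, was listed at the CLDN7 value plus 1.0, 1.3 and 1.5 FPKM for LL, 1.0, 1.5 and 1.5 for DP and 1.5, 1.2 and 1.0 for LG. The same 9 amounts separated 405 pairs of nearby genes among 90980 pairs compared, all 405 on the same strand, and how the deposited values came to be tied was not tested. CLDN7 is therefore reported as listed, and the other 8 genes were in no such pair.

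CLDN1, a claudin needed for the skin barrier, was at 3.34, 4.34 and 3.20 FPKM in the LL libraries, at 16.7, 13.6 and 8.71 in the DP libraries and at 3.11, 4.03 and 9.03 in the LG libraries. Its scaled means of 6.61 ± 1.28 for LL, 8.79 ± 2.48 for DP and 4.25 ± 2.30 for LG had ranges that overlapped between all stages. One library of each later stage stood apart from its group, with DP replicate 3 the lowest of DP at 6.05 and LG replicate 3 the highest of LG at 6.87.

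CLDN5, the main claudin of blood vessel endothelium, was at 4.99, 8.85 and 8.19 FPKM in the LL libraries, at 24.8, 42.8 and 55.7 in the DP libraries and at 5.41, 9.14 and 8.73 in the LG libraries. Scaled, it averaged 13.2 ± 3.00 for LL, 28.2 ± 11.3 for DP and 6.19 ± 1.498 for LG, with no overlap between any of the stages. The gap between LL and DP was narrow, since the highest LL library was at 15.998 and the lowest DP library at 16.229.

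OCLN was at 12.2, 15.7 and 12.4 FPKM in the LL libraries, at 22.0, 20.4 and 9 in the DP libraries and at 15.7, 14.3 and 18.8 in the LG libraries, and on this unscaled scale the stages overlapped. Scaled, its mean was 24.4 ± 3.95 for LL, 11.6 ± 4.62 for DP and 13.0 ± 1.35 for LG. The LL libraries, at 20.5 to 28.4, lay above all libraries of DP and LG, which overlapped, and DP replicate 3, the library with the highest fibroblast marker sum, was the lowest at 6.25. The part of fibroblast content in the OCLN values was not tested.

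F11R, an immunoglobulin-type adhesion protein of the junction, was at 8.73, 11.5 and 12.9 FPKM in the LL libraries, at 26.0, 26.3 and 21.4 in the DP libraries and at 24.2, 26.0 and 29.0 in the LG libraries. Its scaled means were close, 19.9 ± 2.04, 16.7 ± 1.69 and 21.1 ± 0.947, and LL overlapped both other stages. TJP1 was at 4.02, 4.03 and 5.45 FPKM in the LL libraries, at 17.5, 13.3 and 13.3 in the DP libraries and at 11.2, 13.3 and 11.5 in the LG libraries. It had the smallest spread of scaled means relative to its level, 8.12 ± 0.859 for LL, 9.97 ± 1.26 for DP and 9.66 ± 1.05 for LG. In FPKM, OCLN was 2.27 to 3.89 times TJP1 in LL libraries, 0.678 to 1.53 times in DP libraries and 1.08 to 1.63 times in LG libraries, so that the ratios of LL lay above those of both other stages.

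DP was compared with LL to set the gland in the dry period beside the gland late in milk production. OCLN was the 1 gene of the 9 that changed past both thresholds: it fell by 1.08 on the log2 scale (SE 0.27, adjusted p = 0.00806), with 3 of 3 DP libraries under the LL range. Of all 14701 genes tested, 22.6% were called in this comparison, 13.8% higher and 8.79% lower, so 1 of 9 was no more than the background. By adjusted p alone 3 of the 9 passed, beside 56.9% of all genes. The OCLN call was lost with quantile normalization (-0.77, adjusted p = 0.0575), without LL replicate 2 (-0.97) and without DP replicate 3 (-0.73), and over 20 alternatives its adjusted p ran from 0.00302 to 0.429. Without scaling its fold change was 0.25, in the opposite direction, while the median of all genes was then 1.09, which put OCLN 0.84 under that median.

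The other 8 genes were not called in DP against LL. CLDN5 had a log2 fold change of 0.98 (SE 0.30, adjusted p = 0.0203), just under the fold threshold. It was called with quantile normalization (1.30), with a pseudocount of 0.1 (1.03), without scaling (2.29), and without LL replicate 2 (1.12), LL replicate 3 (1.01) or DP replicate 1 (1.32). CLDN7 as listed was at -0.61 (SE 0.19, adjusted p = 0.0194) and CLDN8 at 0.73 (SE 0.33, adjusted p = 0.0872). The remaining values were 0.34 for CLDN1, -0.35 for CLDN3, -0.18 for CLDN4, -0.24 for F11R and 0.26 for TJP1, with adjusted p-values from 0.127 to 0.465. Under median-ratio scaling, for TJP1 the 95% confidence interval of -0.05 to 0.57 and for F11R that of -0.54 to 0.07 exclude a change of 1 or more in size, and so do those of CLDN3 (-0.80 to 0.10) and CLDN4 (-0.63 to 0.27). These intervals hold no uncertainty of the scaling. Without scaling TJP1 was at 1.51, F11R at 1.10, CLDN4 at 1.19 and CLDN3 at 0.98, beside a median of 1.09 for all genes.

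LG was compared with LL to set the gland shortly before birth beside the gland late in milk production. CLDN8 rose by 3.26 on the log2 scale (SE 0.33, adjusted p = 6.57e-05, 9.56-fold on the pseudocount scale) and CLDN7 as listed by 1.13 (SE 0.19, adjusted p = 0.00101). They were 2 of the 9 genes, beside a background of 17.3% of all genes called in either direction, 10.7% higher and 6.61% lower, and without the tied genes the count was 1. By adjusted p alone 5 of the 9 passed, beside 50.2% of all genes. CLDN8 was called in 20 of 20 alternatives, at 3.05 to 4.16. CLDN7 lost its call without LL replicate 1, where its fold change was 0.997.

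CLDN3 had a log2 fold change of 0.99 in LG against LL (SE 0.20, adjusted p = 0.00299), with all 3 LG libraries above all LL libraries, and missed the call by the size of the change alone. It was called with quantile normalization (1.12), with a pseudocount of 0.1 (1.03), without scaling (2.10), and without LL replicate 1 (1.15), LG replicate 1 (1.04) or LG replicate 3 (1.12). CLDN5 was at -0.98 (SE 0.30, adjusted p = 0.0227) and OCLN at -0.85 (SE 0.27, adjusted p = 0.0263), neither past the fold threshold. Without scaling both turned to 0.07 and 0.26, which was 0.86 and 0.67 under the median of all genes. CLDN5 was called with scaling to luminal markers (-1.01), with a pseudocount of 0.1 (-1.08), and without LL replicate 1 (-1.15), LG replicate 2 (-1.10) or LG replicate 3 (-1.04).

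CLDN1 was at -0.61 in LG against LL (SE 0.30, adjusted p = 0.114), with a confidence interval of -1.27 to 0.06. CLDN4 at 0.14 (-0.31 to 0.59), F11R at 0.09 (-0.22 to 0.39) and TJP1 at 0.22 (-0.09 to 0.53) had intervals within a change of 1 in size in either direction under median-ratio scaling. Without scaling they were at 1.29, 1.20 and 1.25, beside a median of 0.93 for all genes. In the same comparison 0 of the 12 luminal markers were called by limma, with 1 of 12 at an adjusted p and 3 of 12 at an unadjusted p under 0.05, and with a median log2 fold change of 0.00 beside 0.02 for all genes. Of all genes, 17.3% were called there and 50.2% had an adjusted p under 0.05.

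LG against DP, which sets the gland before birth beside the gland in the dry period, held the largest number of calls, 4 of the 9 genes. CLDN8 rose by 2.53 (SE 0.33, adjusted p = 0.000505), CLDN7 as listed by 1.74 (SE 0.19, adjusted p = 0.000195) and CLDN3 by 1.34 (SE 0.20, adjusted p = 0.000993), which is 5.78-fold, 3.33-fold and 2.53-fold on the pseudocount scale. CLDN5 fell by 1.96 (SE 0.30, adjusted p = 0.00117). Of all genes, 13.3% were called in this comparison, 6.37% higher and 6.88% lower, beside 3 of 9 higher and 1 of 9 lower here. By adjusted p alone 5 of the 9 passed, beside 34.8% of all genes. Every one of these calls had all 3 LG libraries on one side of all 3 DP libraries. This adds no support to the calls, since the share of all genes so separated was not computed. The calls of CLDN8 (2.30 to 2.92), CLDN3 (1.13 to 1.46) and CLDN5 (-2.30 to -1.70) held in 20 of 20 alternatives and that of CLDN7 in 19 of 19.

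CLDN1 was at -0.95 in LG against DP (SE 0.30, adjusted p = 0.0329), with overlapping libraries, and was not called. Without DP replicate 3 its fold change was -1.17 and without LG replicate 3 it was -1.29, and both were called, as were those with quantile normalization (-1.02), with a pseudocount of 0.1 (-1.12) and without scaling (-1.20). CLDN4 at 0.32 (SE 0.20, adjusted p = 0.239), F11R at 0.33 (SE 0.14, adjusted p = 0.0898), OCLN at 0.23 (SE 0.27, adjusted p = 0.545) and TJP1 at -0.04 (SE 0.14, adjusted p = 0.848) were not called. The sign of OCLN turned without DP replicate 3 (-0.13), and that of TJP1 turned without DP replicate 1 (0.05) and without LG replicate 3 (0.02). The 3 comparisons share libraries, since each stage enters 2 of them, so they are not independent of each other.

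**Figure D2:**
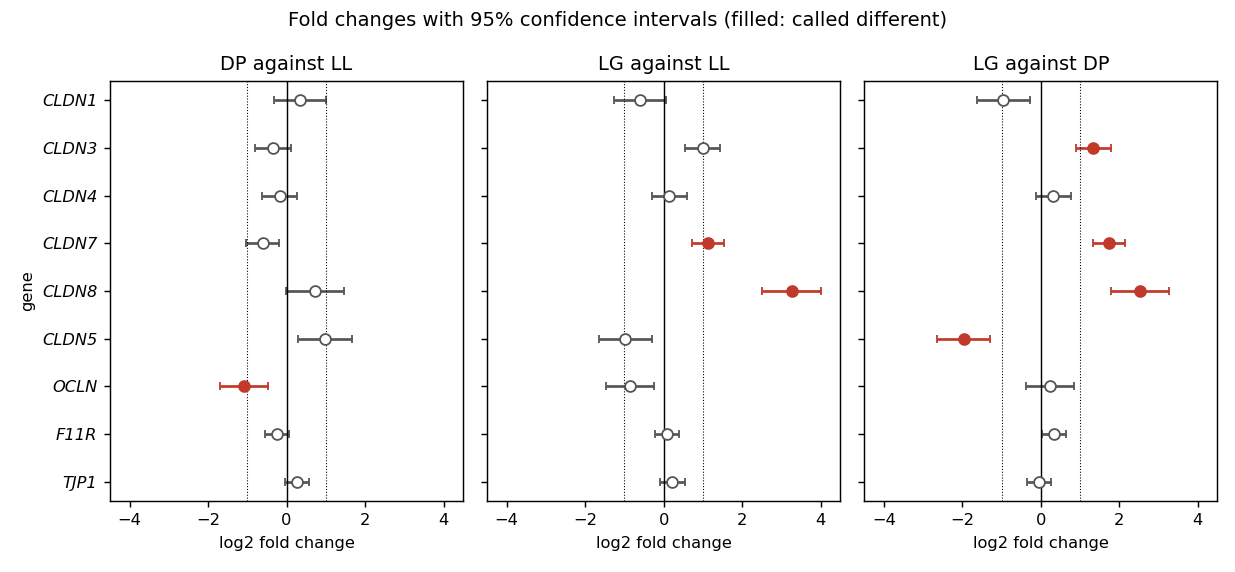
Log2 fold change of each gene (horizontal axes, log2(scaled FPKM + 1) scale) with its 95% confidence interval from limma, one panel per comparison; filled red points were called, and dotted lines mark a change of 1 in size. CLDN8 stood at 3.26 and 2.53 in the comparisons with LG, CLDN5 at -1.96 in LG against DP, and CLDN4, F11R and TJP1 stayed within 0.33 of 0 in all 3 comparisons.

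The scaling sets the direction of several values in the comparisons with LL. Without scaling, the median log2 fold change of all genes was 1.09 for DP against LL, 0.93 for LG against LL and -0.18 for LG against DP, and 6 of the 9 genes were called higher in each of the comparisons with LL. CLDN8, CLDN3 and CLDN7 were higher in LG than in LL and in DP under median-ratio scaling, quantile normalization, scaling to the 12 luminal markers and no scaling. CLDN5 was lower in LG than in DP under all of these. In contrast, the lower OCLN of DP and LG beside LL, and the lower CLDN5 of LG beside LL, were present under the 3 ways of scaling and absent without scaling.

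**Figure D3:**
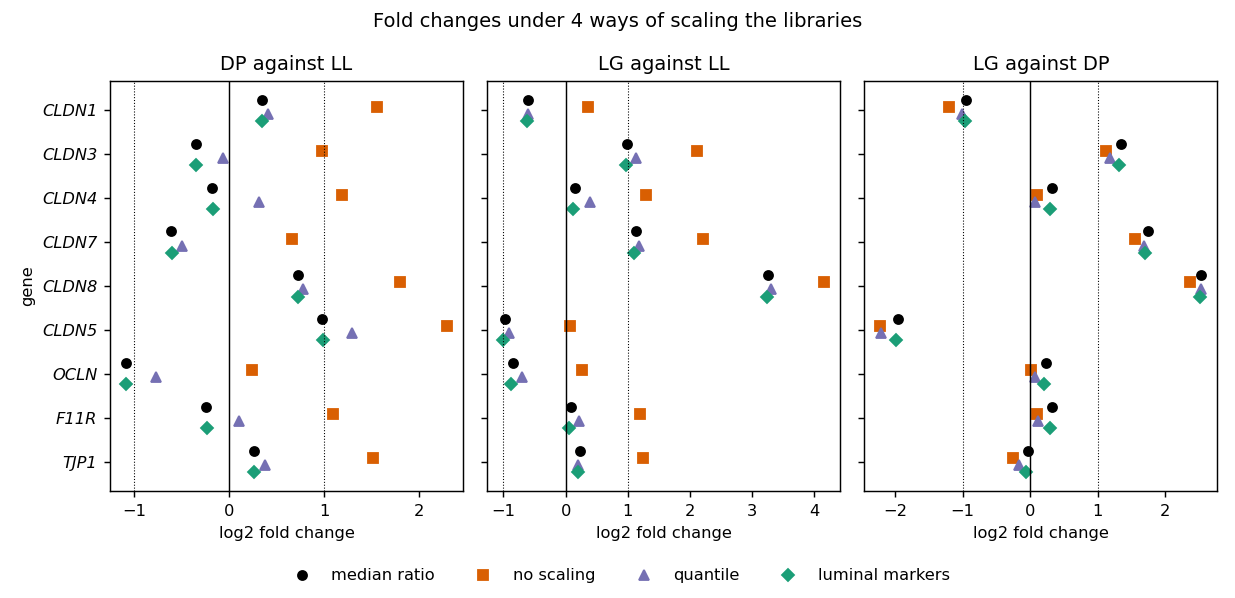
Log2 fold change of each gene (horizontal axes) in the 3 comparisons under median-ratio scaling (black circles), no scaling (orange squares), quantile normalization (purple triangles) and scaling to the luminal markers (green diamonds). In the comparisons with LL, the values without scaling lie to the right of the others by about the median shift of all genes, 1.09 and 0.93, and in LG against DP the 4 sets lie close together.

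Shares within a library need no scaling between libraries. The 6 claudins made up 93.4% to 96.9% of the summed FPKM of the 22 claudin genes in the table. Their own sum was 90.9 ± 4.85 scaled FPKM for LL, 97.7 ± 12.02 for DP and 156 ± 27.4 for LG (SD, n = 3). The makeup of that sum differed between stages for 4 of the 6 claudins, CLDN7 as listed among them. The test was an exact permutation test over all assignments of the libraries to stages, adjusted over 6 (two-sided by its statistic, smallest possible p 0.00357). The 6 shares of a library have a fixed sum, so these tests are not independent. A share can fall because other claudins rise.

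CLDN4 made up 41.4% ± 5.75 of the 6 claudins for LL, 33.9% ± 2.64 for DP and 26.8% ± 1.41 for LG (SD, n = 3, exact permutation adjusted p = 0.0107), with no overlap between stages. The scaled level of CLDN4 itself overlapped between all stages and was not called in any comparison. CLDN5 made up 14.5% ± 3.01 for LL, 28.3% ± 8.55 for DP and 4.02% ± 1.10 for LG (n = 3, exact permutation adjusted p = 0.0107). CLDN8 made up 3.28% ± 0.545 for LL, 6.18% ± 3.15 for DP and 24.7% ± 7.96 for LG (n = 3, exact permutation adjusted p = 0.0161). A claudin with the smallest share in LL thus stood at 16.2% to 31.98% in the LG libraries.

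CLDN7 as listed made up 13.0% ± 3.05, 7.52% ± 1.08 and 17.3% ± 3.33 (n = 3, exact permutation adjusted p = 0.0161). CLDN3, with 20.6% ± 5.47, 14.9% ± 3.24 and 24.2% ± 1.48 (exact permutation adjusted p = 0.0929), and CLDN1, with 7.32% ± 1.62, 9.29% ± 3.56 and 2.92% ± 2.06 (exact permutation adjusted p = 0.0771), did not pass. Without CLDN7, CLDN3 passed as well (exact permutation adjusted p = 0.0223) and CLDN1 did not. The shares of CLDN4 and CLDN5 passed whichever library was left out. That of CLDN8 did not pass without LL replicate 2, LL replicate 3 or DP replicate 2 (exact permutation adjusted p = 0.0536, 0.075 and 0.05). That of CLDN7 did not pass without DP replicate 2 or any one LG library (exact permutation adjusted p = 0.0557 to 0.0696). Taken as log2 over the geometric mean of the 6, CLDN4 did not differ past the threshold (exact permutation adjusted p = 0.0821) and the other 5 claudins did.

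**Figure D4:**
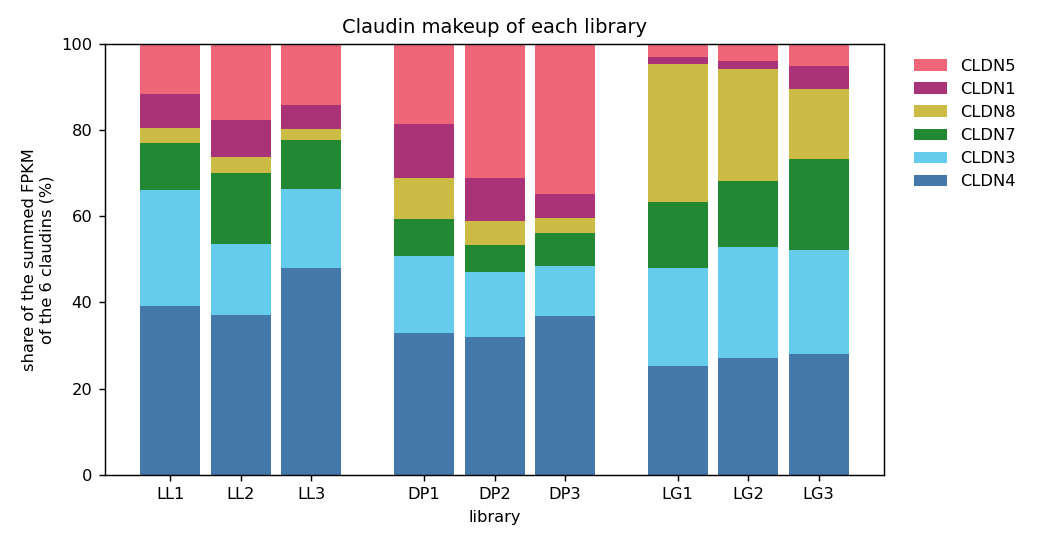
Share of each claudin in the summed FPKM of the 6 claudins (vertical axis, %, from 0 to 100), one bar per library, in the order LL, DP and LG. CLDN8 fills 16.2% to 31.98% of the LG bars and at most 9.60% of any other, and CLDN5 fills 18.6% to 34.9% of the DP bars and at most 5.12% of an LG bar.

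Other endothelial genes were read beside CLDN5. The 10 endothelial markers, which include VWF, CDH5 and PECAM1 (itself listed at values tied to a neighbour), summed to 123 to 158 scaled FPKM for LL, 160 to 227 for DP and 78.5 to 109 for LG, and none was at 0. Without PECAM1, an alternative chosen after the data were seen, the other 9 summed to 62.9 to 73.7 for LL, 81.2 to 148.1 for DP and 49.98 to 68.5 for LG, so that LL and LG overlapped while DP stayed above both. In LG against DP, 3 of the 10 were called lower (CLEC14A, TEK and EGFL7) and none higher, beside 6.88% and 6.37% of all genes. The median of the 10 was -0.90 on the log2 scale. Their medians were 0.63 for DP and -0.32 for LG, each against LL, with 0 called by limma beside 22.6% and 17.3% of all genes. An unadjusted p under 0.05 was reached by 5 of 10 in both. An adjusted p under 0.05 was reached by 5 and 4 of 10, beside 56.9% and 50.2% of all genes. The 5 in DP (EMCN, CLEC14A, TIE1, TEK and EGFL7) were all higher, while of the 4 in LG, CLEC14A, TEK and PECAM1 were lower and KDR was higher (0.70, adjusted p = 0.00556). KDR was also at 0.35 in LG against DP, where ROBO4 was at -0.00, and EMCN was at 0.06 in LG against LL. The log2 ratio of scaled CLDN5 to the geometric mean of the 10 markers was 0.71 ± 0.40 for LL, 1.24 ± 0.58 for DP and -0.10 ± 0.17 for LG (SD, n = 3), so that CLDN5 was also lower relative to these markers in LG. Without PECAM1 it was 1.06 ± 0.40, 1.54 ± 0.61 and 0.18 ± 0.18 in the same order. These ratios were computed after the values were seen and carry no test. The part of vessel content in the CLDN5 result was not tested.

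For the 8 other genes the same ratio was formed with the 12 luminal markers, also without a test. CLDN8 was at -2.83 ± 0.12 for LL, -1.93 ± 0.48 for DP and 0.78 ± 0.65 for LG (SD, n = 3). CLDN3 was at -0.19 ± 0.27, -0.56 ± 0.18 and 0.81 ± 0.28, and OCLN at 0.21 ± 0.18, -0.95 ± 0.47 and -0.72 ± 0.19, in the same order of stages. The means were -1.68, -1.29 and -2.46 for CLDN1, 0.83, 0.65 and 0.95 for CLDN4, and -0.86, -1.53 and 0.31 for CLDN7 as listed. For F11R they were -0.08, -0.33 and -0.02, and for TJP1 -1.37, -1.075 and -1.15. On this scale LG still lay apart from the other stages for CLDN8 and CLDN3, and LL still lay above both other stages for OCLN. Among the luminal markers, RAB25 and SPINT2 were called lower in DP than in LL, and RAB25 was called higher and PROM1 lower in LG than in DP. By adjusted p alone, 5 and 7 of the 12 passed in these comparisons, beside 56.9% and 34.8% of all genes. The 7 in LG against DP were split. RAB25, ESRP1 (0.997), SPINT2 (0.997) and EPCAM (0.80) were higher, while PROM1, KRT18 (-0.89) and ELF3 (-0.85) were lower. Fibroblast markers were called higher in DP than in LL for 6 of 7, and leukocyte markers for 5 of the 7 tested, beside 13.8% of all genes. In LG against DP, 3 of 7 fibroblast markers (median -1.06) and 4 of 7 leukocyte markers (median -1.24) were called lower and none higher. Of all genes, 6.88% were called lower and 6.37% higher there. Their part in the results above was not tested.

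Other genes of the junction were read from lists of its remaining parts, of which 27 genes passed the filter on low values. In DP against LL 2 of 27 were called higher and 3 lower (median log2 fold change -0.09). The 2 called higher, CLDN12 and MPDZ, were under 0.5 FPKM in every LL library. They passed the filter only through DP and LG, and both are also among the higher calls of LG against LL. The calls of LG against LL were 6 higher and 2 lower (median 0.11), and those of LG against DP 3 higher and 0 lower (median 0.50), while the medians of all genes were 0.00, 0.02 and 0.01. Of all genes tested, 13.8% were called higher and 8.79% lower in the first of these comparisons, 10.7% and 6.61% in the second, and 6.37% and 6.88% in the third.

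Of 15 other claudins with a row, 3 passed the filter. CLDN12, a claudin that lacks the usual binding motif for scaffolds, was at 0.01 to 0.46 FPKM for LL, 3.15 to 3.71 for DP and 4.34 to 6.25 for LG. It rose by 1.41 in DP (SE 0.21, adjusted p = 0.000432) and by 2.08 in LG (SE 0.21, adjusted p = 6.19e-05) against LL. CLDN15 and CLDN23 were not called in any of the comparisons.

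The scaffolds around TJP1 gave the most calls in LG against LL, 4 of 8 higher and 0 lower, with a median of 1.04, beside 10.7% of all genes called higher. Cingulin (CGN), which links the junction to the cytoskeleton, was at 2.06 to 2.18 FPKM for LL, 4.94 to 10.1 for DP and 15.5 to 22.7 for LG, and rose in LG by 1.75 against LL (SE 0.23, adjusted p = 0.000306) and by 1.38 against DP (SE 0.23, adjusted p = 0.0019). MPDZ, a scaffold with many PDZ domains, was at 0.10 to 0.19 FPKM in LL and rose by 1.95 in DP (SE 0.14, adjusted p = 6.05e-06) and by 1.42 in LG (SE 0.14, adjusted p = 4.49e-05). It is among the 4 scaffolds called higher in LG, and it passed the filter only through DP and LG. CGNL1 (1.10, adjusted p = 0.00394) and MAGI1 (1.15, adjusted p = 0.00131) were the other scaffolds called in LG against LL, and both are named after their values were seen.

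Among the immunoglobulin-type proteins that F11R belongs to, IGSF5 and JAM3 were lower in DP and in LG than in LL. IGSF5, also known as JAM4, was at 6.99 to 11.8 FPKM for LL, 2.17 to 3.98 for DP and 8.01 to 9.34 for LG. It fell by 2.54 in DP (SE 0.22, adjusted p = 2.1e-05) and by 1.21 in LG against LL (SE 0.22, adjusted p = 0.00193), and rose by 1.32 in LG against DP (SE 0.22, adjusted p = 0.00191). JAM3 fell by 1.75 in DP (SE 0.25, adjusted p = 0.000373) and by 1.36 in LG (SE 0.25, adjusted p = 0.00195) against LL. The LG call of IGSF5 (-0.13) and both calls of JAM3 (-0.40 and -0.23) were lost without scaling. MARVELD3, a relative of occludin, was at 1.39 to 1.83 FPKM for LL, 2.42 to 4.81 for DP and 6.92 to 11.98 for LG and rose by 1.23 in LG against DP (SE 0.22, adjusted p = 0.00218). It was also called in LG against LL at 1.04 (adjusted p = 0.00345), a value outside the naming rule. MARVELD2 and LSR, proteins of the corners where 3 cells meet, were listed at the value of a neighbouring gene plus or minus the amounts described for CLDN7, and were not called. Of the 7 apical polarity genes that passed the filter, such as PARD3 and PRKCZ, 0 were called by limma in any of the comparisons, while 5, 2 and 6 had an adjusted p under 0.05 (5, 3 and 6 an unadjusted p) when DP was set against LL, LG against LL and LG against DP. Of all genes, 22.6%, 17.3% and 13.3% were called in the same order, and 56.9%, 50.2% and 34.8% had an adjusted p under 0.05.

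In the adherens junction and desmosome, which lie below the tight junction, 3 of 16 genes were called higher and 1 lower in DP against LL, beside 13.8% and 8.79% of all genes. NECTIN3 was at 0.12 to 0.26 FPKM for LL, 7.77 to 11.6 for DP and 2.17 to 2.34 for LG. It rose by 2.49 in DP against LL (SE 0.14, adjusted p = 2.39e-06) and fell by 1.43 in LG against DP (SE 0.14, adjusted p = 0.000134), and it was higher in LG than in LL by 1.06, outside the naming rule. NECTIN4 was at 0.04 to 0.23 FPKM in LL and rose by 1.75 in DP (SE 0.22, adjusted p = 0.000168) and by 1.98 in LG (SE 0.22, adjusted p = 0.000113). NECTIN2 fell by 1.61 in DP against LL (SE 0.18, adjusted p = 8.26e-05), a call lost without scaling (-0.27). DSC3 (1.01, named after its value was seen) was the third gene called higher in DP. All 3 genes called higher in DP were under 0.5 FPKM in every LL library and passed the filter only through the other stages. PKP1, a desmosomal plaque protein, fell by 1.05 in LG against DP (SE 0.20, adjusted p = 0.00301) and lost its call without DP replicate 3 (-0.99), LG replicate 1 (-0.97) or LG replicate 2 (-0.97).

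**Figure D5:**
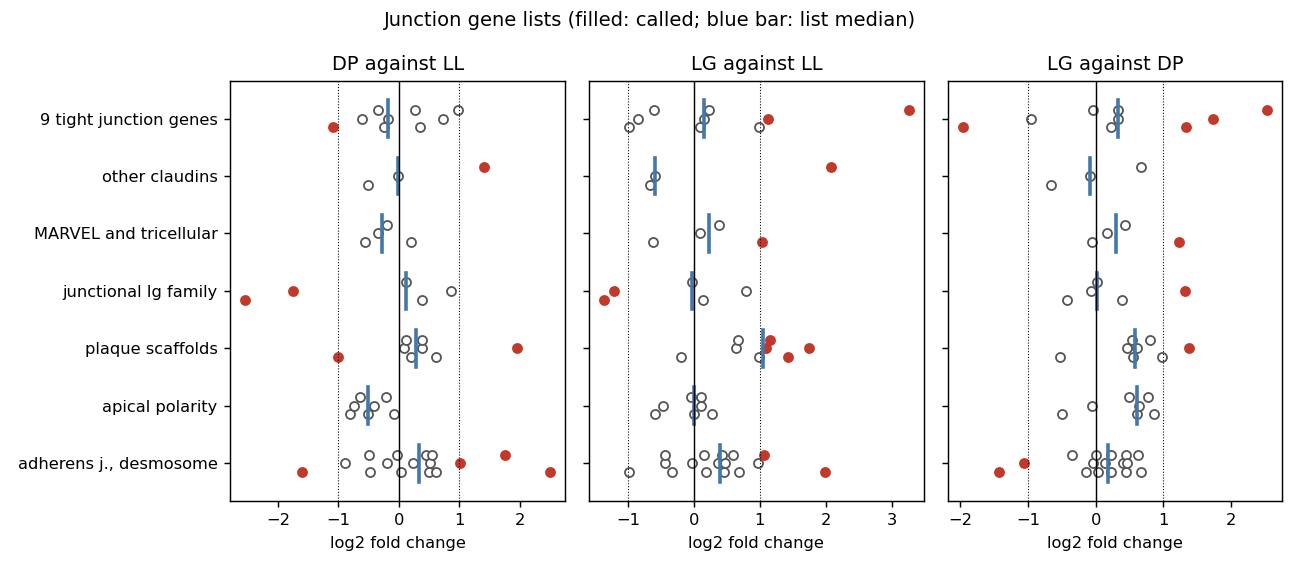
Log2 fold change (horizontal axes) of each gene that passed the filter, by list (rows), in the 3 comparisons; filled red points were called, the blue bar is the median of the list, and dotted lines mark a change of 1 in size. The scaffold list has its median at 1.04 in LG against LL, and the apical polarity list has 0 calls and medians of -0.50, 0.00 and 0.61.

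Likeness of pattern was measured as the root mean square difference between the log2(scaled FPKM + 1) values of 2 genes over the 9 libraries, each centred on its own mean, with 0 for identical patterns. Among the 9 genes the closest pairs were CLDN4 and F11R (0.24), TJP1 and F11R (0.26) and CLDN4 and TJP1 (0.28), all with little difference between stages. CLDN3 and CLDN7 as listed followed at 0.38, and the farthest pair was CLDN5 and CLDN8 at 2.17.

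Among all tested genes, CLDN8 lay closest to PLEKHS1 (0.26), LOC108633897 (0.37) and NREP (0.37), and CLDN3 to TMEM150C (0.16), LOC102181554 (0.18) and LOC102174264 (0.18). CLDN5 lay closest to PLP2 (0.23), KLF4 (0.24) and TACC1 (0.24), and CLDN1 to ELOVL7 (0.24), JAZF1 (0.27) and LOC102185028 (0.28). OCLN lay closest to TNFRSF13B (0.20), RBBP8 (0.24) and LOC102184907 (0.24). The 3 genes with little difference between stages had nearer neighbours, CLDN4 in NACC2 (0.07), RAB43 (0.07) and ASMT (0.09), F11R in EDRF1 (0.07), CHTF8 (0.07) and LRRC8B (0.08), and TJP1 in IQCC (0.07), LOC108635103 (0.08) and NPW (0.08). The measure is not divided by the spread of a gene, so any genes that change little lie close together. The pseudocount also flattens low genes, such as NPW with a mean of 0.371 FPKM and TNFRSF13B with 1.13. For CLDN7 the nearest was CTDNEP1 (0.08), to which its values are tied, and PTPRF lay at 0.14.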

How the data were processed

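According to the labels and the study's methods, the authors trimmed the reads and aligned them to the goat genome with HISAT2, and the labels also name FastQC, Trimmomatic, SAMtools and HTSeq, without versions. The deposited table gives 1 value per gene and library and names neither unit nor build. Its values were read as FPKM computed by the authors, since they carry decimals, sum to different totals and FPKM is the measure in which the study gives transcript levels, though its methods name no unit for this table. How transcripts were combined into genes is not given in the sources used here. Gene identifiers (23465 of them) were found in the RefSeq annotation of ARS1.2, from which names, starts and neighbours were read and nothing else. Depth cannot be read from the values.

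Levels were divided by median-ratio factors (15905 genes) and transformed as log2 of the level plus a pseudocount of 1, so fold changes of low genes are understated. Genes that reached 0.5 FPKM in 3 or more libraries, 14701 in all, entered limma 3.58.1 (R 4.3.3, mean-variance trend, all 9 libraries in one fit), with Benjamini-Hochberg adjustment over all of them; the thresholds were an adjusted p of 0.05 and a log2 fold change of 1. Claudin shares were tested with an exact permutation test in Python 3.11.15. Tied genes were searched for within 8 neighbours on either side, by the amounts described for CLDN7, with a tolerance of 0.015 FPKM. For the listed genes a tie also counted where a straight line on a neighbour's values came within 1% of the gene's range. PECAM1, KRT5, KRT14 and DSP were found by the line alone. The alternative without tied genes left out only those found by the amounts. The procedures were tested on simulated data. The replicates are separate goats.

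The 9 genes and the lists were chosen with earlier results of these data known. The text gives all 9 genes in each comparison, per comparison the 4 called genes of the other junction lists (tight, adherens and desmosomal) that rose most and the 4 that fell most, and, for each of the 9, the 3 genes of closest pattern. Some genes that these rules name are not reported here, and the counts include them. CLDN22, CLDN24, PALS1, DSC2 and KRT17 had no row by these symbols. Alternatives covered scaling (none, quantile, luminal markers), the pseudocount (0.1), the filter (none, or 2 FPKM), the libraries in the fit, a replicate block, the trend, the call rule, the denominator and form of the shares, and each library left out in turn. Leaving out the tied genes, or CLDN7 from the shares, was added after the values were seen.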

Additional observations from a re-analysis of the deposited data

How the results depend on the processing

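Of 510 recomputed fold changes of the 9 genes, 465 kept their direction and their side of the thresholds, 28 passed the thresholds only in the alternative, 4 lost them and 13 turned sign. In DP against LL the count of called genes was 1, and it was 6 without scaling, 2 with a pseudocount of 0.1, 3 by adjusted p alone and 0 to 2 with a library left out (0 without DP replicate 3, 2 without LL replicate 3 or DP replicate 1). In LG against LL the count was 2, and it was 6 without scaling, 4 with a pseudocount of 0.1, 5 by adjusted p alone, 3 with quantile normalization or scaling to luminal markers, 1 without the tied genes and 2 to 4 with a library left out (4 without LG replicate 3). In LG against DP the count was 4, and 3 to 5 in every alternative run. The count of claudin shares that differed was 4, with 2 to 5 when a library was left out (2 without DP replicate 2).

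Signs turned without scaling in DP against LL for CLDN3 (0.98), CLDN4 (1.19), CLDN7 (0.66), OCLN (0.25) and F11R (1.10), and in LG against LL for CLDN1 (0.36), CLDN5 (0.074) and OCLN (0.26). They turned with quantile normalization in DP against LL for CLDN4 (0.32) and F11R (0.10), and in LG against DP, with a library left out, for OCLN (-0.127 without DP replicate 3, range to 0.416) and for TJP1 (0.053 without DP replicate 1 and 0.02 without LG replicate 3, range -0.117 to 0.053). Of all calls, 61.1%, 61.8% and 48.1% were higher in DP against LL, LG against LL and LG against DP, and 95.6%, 95.1% and 31.2% without scaling. What moved the counts under the alternatives other than no scaling was not tested.

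With a replicate block, which pairs libraries of the same number, the counts were 1, 2 and 4, and no call of the 9 genes changed. Over all genes the block gave 3340, 2564 and 1986 calls beside 3321, 2544 and 1948. The numbers name separate goats, and the deviations of same-numbered libraries correlated at -0.106 to 0.201, so they were not taken as pairs. Of the other junction genes, 13 and 16 of 27 were called without scaling in DP against LL and LG against LL. With 3 goats per stage, and no read counts, some small differences may have been missed.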
